A study of Arabidopsis thaliana with 9 samples.

Results

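The genes described are 8 chromatin repressors of Arabidopsis thaliana: the histone deacetylase genes HDA19 and HDA6, the SIN3-like scaffold genes SNL1 and SNL2, the B3-domain repressor genes VAL1, VAL2 and VAL3, and the chromatin remodeller gene PKL. They were taken by gene symbol and locus from the deposited table, and all 8 were found among its 33602 genes. Transcripts were measured by mRNA sequencing of whole siliques, the seed pods with the seeds inside, at 12 days past anthesis, in 3 groups of 3 libraries. The first group was the scl15 knockout, described by the labels as lacking a functional gene. The next was Napin:SCL15, in which SCL15 is overexpressed in seeds. The name Napin is that of a seed storage protein promoter, which is active in the maturing embryo and not in the pod wall. The last was wild type Columbia. The labels give no allele, number of independent lines or pooling of plants, and no agent was applied to any group. At issue is how these transcripts differ between plants without functional SCL15, plants with excess SCL15 in seeds, and wild type.

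Histone deacetylases remove acetyl groups from histone tails, which closes chromatin to transcription, and SIN3-like proteins are the scaffolds that join deacetylases to DNA-binding factors. VAL proteins bind the RY element through a B3 domain and recruit deacetylase and Polycomb complexes to the LEC1, FUS3, ABI3 and other seed genes when the embryo programme is shut down. PKL is a CHD3-type remodeller that keeps embryo genes silent in seedlings, and SCL15, a GRAS family regulator, has been reported to bind HDA19 and to take part in silencing seed maturation genes after germination.

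The upstream sequences of 3 of the genes are shown. HDA19 and HDA6 are the pair whose transcript levels were called different between the overexpression line and the knockout, as were those of 49.2% of all genes. Both calls depended on how the libraries were scaled. VAL1 is the member that carries the VAL proteins' own target letters near its start. The 250 bases before the annotated start of each gene are given 5′ to 3′ on the gene's strand, from the TAIR10.1 assembly of RefSeq, with matches to the RY element (CATGCA, either strand, overlaps counted) in capitals.
HDA19, chr4:17899510-17899759, minus strand: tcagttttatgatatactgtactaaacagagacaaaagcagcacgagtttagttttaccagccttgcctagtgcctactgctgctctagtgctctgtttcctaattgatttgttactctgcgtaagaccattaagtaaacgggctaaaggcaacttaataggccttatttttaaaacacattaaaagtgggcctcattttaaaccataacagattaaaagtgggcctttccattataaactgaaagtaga
HDA6, chr5:25318348-25318597, minus strand: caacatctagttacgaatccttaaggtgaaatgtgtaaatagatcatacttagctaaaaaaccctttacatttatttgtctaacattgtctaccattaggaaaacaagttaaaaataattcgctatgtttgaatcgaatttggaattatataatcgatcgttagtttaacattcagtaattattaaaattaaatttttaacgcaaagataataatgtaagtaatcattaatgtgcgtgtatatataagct
VAL1, chr2:12985278-12985527, minus strand: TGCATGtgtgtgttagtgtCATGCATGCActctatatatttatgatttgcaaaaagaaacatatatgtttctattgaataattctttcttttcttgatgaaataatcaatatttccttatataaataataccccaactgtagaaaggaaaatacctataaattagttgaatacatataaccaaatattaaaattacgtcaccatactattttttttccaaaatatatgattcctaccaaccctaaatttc
The VAL1 window held 4 RY matches, some of which overlap, all near its far end from the gene. The windows of HDA19 and HDA6 held none. Of 27443 gene starts searched in the same way, 8.43% had at least 1 RY match within 250 bases. None of the 8 windows held a G-box (CACGTG), found in 6.49% of all windows. The telobox (AAACCCTA), found in 4.49%, occurred once among them, before SNL2. These matches describe letters only, and binding was not measured.

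In the TAIR10.1 annotation HDA19 (AT4G38130) lies on chromosome 4 at 17896278 to 17899509 on the minus strand, and HDA6 (AT5G63110) on chromosome 5 at 25315506 to 25318347 on the minus strand. SNL1 (AT3G01320) lies on chromosome 3 at 106294 to 113679 on the plus strand, and SNL2 (AT5G15020) on chromosome 5 at 4859127 to 4866034 on the minus strand. VAL1 (AT2G30470) lies on chromosome 2 at 12980428 to 12985277 on the minus strand. VAL2 (AT4G32010) and VAL3 (AT4G21550) lie on chromosome 4, at 15479379 to 15485354 and at 11462969 to 11468679, both on the plus strand. PKL (AT2G25170) spans 10713807 to 10724106 of chromosome 2 on the plus strand and is the longest of the 8 genes at 10300 bases. Annotated genes overlap PKL (by 522, 208 and 103 bases), VAL3 (309 and 14 bases), SNL1 (141 bases), VAL2 (104 bases) and HDA6 (28 bases). The overlaps of 103 bases in PKL and 28 bases in HDA6 are with genes on the same strand, so reads there may have been counted for either gene. The others are with genes on the opposite strand, where this could happen if strand was not used in counting. How strand was used in counting is not given in the sources used here.

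SCL15 (AT4G36710) itself had 6.31, 6.39 and 4.82 TPM in knockout siliques, 526, 569 and 556 TPM in overexpression siliques, and 14.4, 16.2 and 10.7 TPM in wild type. TPM, transcripts per 1000000, is a share corrected for gene length, so a gene's TPM falls when a few abundant transcripts take more of the total. The 20 most abundant genes took 43.7 to 44.8% of the total in the knockout, 53.2 to 56.2% in overexpression siliques and 44.2 to 46.4% in wild type. Seed and embryo markers (5 genes) summed to 219329 to 221888 TPM in knockout siliques, 320295 to 358197 TPM in overexpression siliques and 222942 to 233928 TPM in wild type. FAE1, the least abundant of them, did not follow this sum and averaged 241, 205 and 199 TPM in that order of groups. Silique wall markers (5 genes) summed to 126 to 139 TPM in knockout siliques, 70.7 to 86.0 TPM in overexpression siliques and 114 to 137 TPM in wild type. The seed coat markers TT10, BAN, TT12 and MUM4 summed to 196 to 239.7 TPM in knockout siliques, 169.9 to 200.1 TPM in overexpression siliques and 164 to 185 TPM in wild type, with TT12 at 0 in 8 of 9 libraries and at 0.051 TPM in the other. Most of this sum was TT10, which averaged 192, 168 and 153 TPM in that order of groups. MUM4 averaged 25.5, 15.4 and 21.9 TPM and so was lowest in the overexpression line, unlike TT10. The endosperm markers (4 genes) summed to 3018 to 3082 TPM in knockout siliques, 3746 to 8015 TPM in overexpression siliques and 3756 to 6250 TPM in wild type. FIS2 was listed at 0 in every overexpression and wild type library. Nearly all of this sum was EPR1, which averaged 3039, 5487 and 4667 TPM in that order of groups. ZOU ran the other way, with averages of 4.21, 1.51 and 2.21 TPM. MEA did too, averaging 1.75 TPM in knockout siliques and 0.845 TPM in overexpression siliques, with wild type between them. The sum therefore does not describe all endosperm markers. The pollen markers VGD1 and PPME1 summed to 1.30 to 2.64 TPM in knockout siliques, 1.46 to 2.51 TPM in overexpression siliques and 3.59 to 7.74 TPM in wild type. In whole siliques, fewer cells of a type and less RNA per cell cannot be told apart. Between 19679 and 21855 genes were above 0 in a library, and TPM keeps no read depth.

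**Figure D1:**
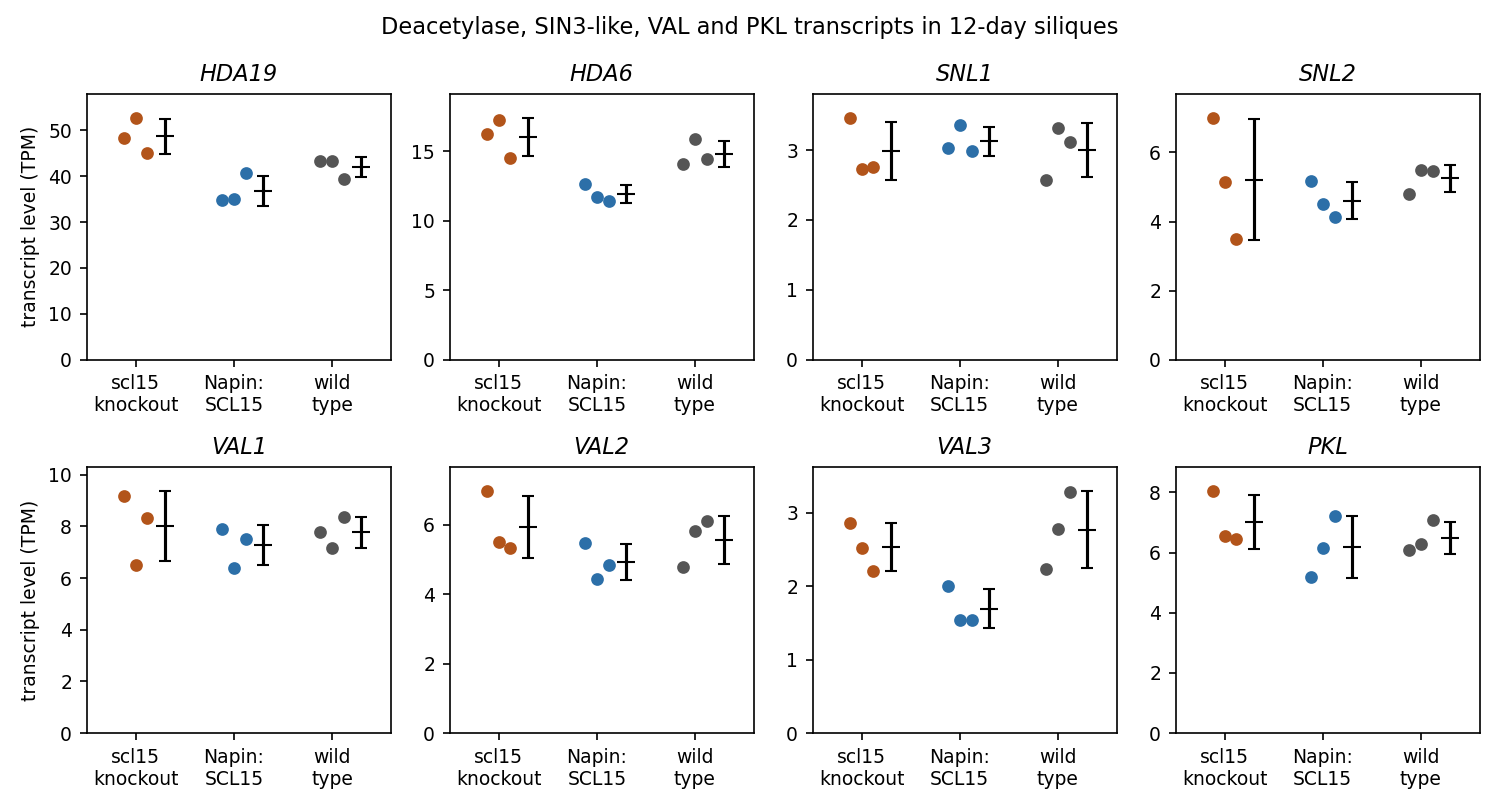
Transcript level (TPM, linear axis from 0) of the 8 repressor genes, with 1 point per library and the mean with SD (n = 3) beside each group. HDA19 and HDA6 in the overexpression line lie below all knockout libraries, and VAL3 there lies below every library of the knockout and wild type.

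HDA19, the RPD3-type deacetylase that TOPLESS, SIN3-like and many other repressors recruit, was the most abundant of the 8 transcripts. It had 48.3, 52.7 and 45.1 TPM in knockout siliques, 34.7, 35.1 and 40.6 TPM in overexpression siliques, and 43.3, 43.2 and 39.4 TPM in wild type. The knockout libraries were all above the wild type libraries, and overexpression replicate 3 was the only library of that line inside the wild type range.

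HDA6, its RPD3-type paralogue known for silencing repeats and rRNA genes and for acting with the DNA methyltransferase MET1, had 16.3, 17.3 and 14.6 TPM in knockout siliques. It had 12.6, 11.7 and 11.5 TPM in overexpression siliques and 14.1, 15.9 and 14.5 TPM in wild type. All overexpression libraries lay below all others, while the knockout and wild type ranges overlapped.

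SNL1 and SNL2 encode scaffolds of the SIN3 type that bind HDA19 and support seed dormancy. SNL1 had 3.46, 2.73 and 2.75 TPM in knockout siliques, 3.03, 3.36 and 2.99 TPM in overexpression siliques, and 2.57, 3.32 and 3.12 TPM in wild type. The 3 ranges overlapped. SNL2 had 7.01, 5.14 and 3.49 TPM in knockout siliques, 5.18, 4.52 and 4.12 TPM in overexpression siliques, and 4.79, 5.49 and 5.46 TPM in wild type. The knockout libraries differed among themselves more than the groups did, with replicate 1 highest and replicate 3 lowest of all 9.

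VAL1, also called HSI2, had 9.17, 6.52 and 8.33 TPM in knockout siliques, 7.91, 6.40 and 7.51 TPM in overexpression siliques, and 7.78, 7.17 and 8.36 TPM in wild type. VAL2 (HSL1), its partner in repressing the embryo programme, had 6.97, 5.51 and 5.35 TPM in knockout siliques, 5.49, 4.45 and 4.85 TPM in overexpression siliques, and 4.80, 5.83 and 6.10 TPM in wild type. In both genes the groups overlapped and the lowest library was overexpression replicate 2. VAL3, the least studied of the 3, had 2.86, 2.52 and 2.20 TPM in knockout siliques, 2.00, 1.54 and 1.54 TPM in overexpression siliques, and 2.24, 2.78 and 3.29 TPM in wild type. The overexpression libraries lay below all others, and the knockout overlapped wild type.

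PKL had 8.04, 6.56 and 6.43 TPM in knockout siliques, 5.18, 6.16 and 7.23 TPM in overexpression siliques, and 6.09, 6.27 and 7.09 TPM in wild type. The overexpression libraries spanned more than the whole wild type range.

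On the TPM scale, which is per length, the order of mean levels over all 9 libraries was HDA19, HDA6, VAL1, PKL, VAL2, SNL2, SNL1 and VAL3. HDA19 averaged 42.5 ± 5.86 TPM and exceeded 86.5% of the 16555 genes tested, whereas VAL3 averaged 2.33 ± 0.594 TPM and exceeded 16.4% (SD, n = 9). HDA19 was above HDA6 by 2.98-fold on the means, HDA6 above VAL1 by 1.86-fold and SNL2 above SNL1 by 1.65-fold, each in 9 of 9 libraries and with ranges that did not overlap in any group. The other neighbours in this order overlapped in part, and their differences were not tested. VAL1 was above PKL in 8 of 9 libraries, PKL above VAL2 in 8, VAL2 above SNL2 in 7 and SNL1 above VAL3 in 8, with ranges overlapping in at least 2 of the 3 groups.

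As deposited, most of the 8 transcripts varied less across the study than most genes, while VAL3 and SNL2 lay near the middle. The ratio of the highest to the lowest of the 9 libraries was 1.52 for HDA19, 1.51 for HDA6, 1.43 for VAL1, 1.57 for VAL2, 1.55 for PKL and 1.35 for SNL1, and reached 2.00 for SNL2 and 2.14 for VAL3. The median of this ratio over all genes tested was 2.18, so all 8 lay below it. Of all genes tested, 97.3% had a wider ratio than SNL1 and 52.0% a wider ratio than VAL3. After median-ratio scaling, which sets the median of all gene ratios equal in each library, the ratio was 1.29 for HDA19 and 1.20 for HDA6, and 99.6% of genes had a wider ratio than HDA6. It was 1.39 for VAL2, 1.43 for PKL and 1.76 for VAL3, but 1.58 for VAL1, 1.70 for SNL1 and 1.94 for SNL2, beside a median of 1.97 over all genes. SNL1 was thus no longer the narrowest, and 66.4% of genes had a wider ratio than it.

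In the scl15 knockout against wild type, no member was called changed. HDA19 averaged 48.7 ± 3.82 TPM in knockout siliques and 42.0 ± 2.26 TPM in wild type (SD, n = 3 each), a log2 change of 0.21 (SE 0.12, 95% interval -0.04 to 0.46, limma adjusted p = 0.268). HDA6 averaged 16.04 ± 1.38 TPM in knockout siliques and 14.8 ± 0.952 TPM in wild type, a log2 change of 0.11 (SE 0.13, adjusted p = 0.639). The log2 fold changes of the other 6 ran from -0.09 for VAL3 to 0.09 for PKL, with adjusted p-values from 0.752 for PKL to 0.982 for SNL1. The 95% intervals of the 8 together reached from -0.49 to 0.46.

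By limma at an adjusted p under 0.05, 0 of 8 members passed in the knockout, and 0 at an unadjusted p under 0.05, beside 15.5% of all genes called (9.18% higher, 6.31% lower). The members' median log2 fold change was 0.05, against 0.10 over all genes. HDA19 was the member whose groups did not overlap, higher in the knockout, as were the groups of 21.9% of all genes. It was not called under any of 20 alternative settings, with adjusted p-values from 0.189 to 0.610.

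Relative to wild type, HDA6 and VAL3 stood lowest of the 8 in overexpression siliques, and neither passed the threshold. HDA6 averaged 11.9 ± 0.626 TPM in overexpression siliques and 14.8 ± 0.952 TPM in wild type (SD, n = 3 each), a log2 change of -0.29 (SE 0.13, limma adjusted p = 0.108). VAL3 averaged 1.69 ± 0.268 TPM in overexpression siliques and 2.77 ± 0.526 TPM in wild type, a log2 change of -0.48 (SE 0.19, 95% interval -0.88 to -0.08, adjusted p = 0.0723). HDA19 averaged 36.8 ± 3.28 TPM in overexpression siliques and 42.0 ± 2.26 TPM in wild type, a log2 change of -0.19 (SE 0.12, adjusted p = 0.245). SNL2 (-0.16), VAL2 (-0.15), VAL1 (-0.09), PKL (-0.07) and SNL1 (0.05) had log2 fold changes with adjusted p-values from 0.516 to 0.860.

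By limma, 0 of 8 members passed in the overexpression line at an adjusted p under 0.05 and 2 (HDA6 and VAL3) at an unadjusted p under 0.05, beside 25.1% of all genes called (1.68% higher, 23.4% lower). The groups of these 2 did not overlap, as for 39.6% of all genes, which were likewise lower in the overexpression line. The members' median log2 fold change was -0.15 against -0.28 over all genes. VAL3 passed under 1 of 19 alternatives, the test without an abundance trend (adjusted p = 0.0435), and its adjusted p ran to 0.497 over the others. Its log2 fold change was below 0 in all 19, and was -0.26 after median-ratio scaling. HDA6 was at 0.02 (adjusted p = 0.944) after median-ratio scaling, so its direction depended on the scaling.

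In the overexpression line against the knockout, HDA19 and HDA6 were called lower. HDA19 averaged 36.8 ± 3.28 TPM in overexpression siliques and 48.7 ± 3.82 TPM in knockout siliques (SD, n = 3 each), a log2 change of -0.40 (SE 0.12, limma adjusted p = 0.0126). HDA6 averaged 11.9 ± 0.626 TPM in overexpression siliques and 16.04 ± 1.38 TPM in knockout siliques, a log2 change of -0.40 (SE 0.13, adjusted p = 0.0194). VAL3 averaged 1.69 ± 0.268 TPM in overexpression siliques and 2.53 ± 0.327 TPM in knockout siliques, a log2 change of -0.39 (SE 0.19, adjusted p = 0.0953). The other log2 fold changes ran from -0.22 for VAL2 to 0.05 for SNL1, with adjusted p-values from 0.266 to 0.809.

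These 2 calls of 8 stand beside 49.2% of all genes called, 43.1% lower and 6.16% higher, and the sizes of HDA19 and HDA6 lay close to the median of all genes, -0.38. The members' median was -0.19. The groups of HDA19, HDA6 and VAL3 did not overlap, as was so, in the lower direction, for 49.3% of all genes. Median-ratio scaling moved the median of all genes to -0.01 and ended both calls. On that scale HDA19 had 40.8, 43.6 and 46.1 TPM in overexpression siliques, against 40.3, 47.4 and 40.4 TPM in knockout siliques, with a log2 change of 0.03 (SE 0.11, adjusted p = 0.884). HDA6 on that scale had 14.8, 14.5 and 13.0 TPM in overexpression siliques, against 13.6, 15.55 and 13.0 TPM in knockout siliques, with a log2 change of 0.01 (SE 0.12, adjusted p = 0.971). The groups of both overlapped there. The HDA6 call also ended without knockout replicate 1 (adjusted p = 0.0568), knockout replicate 2 (0.0707) or overexpression replicate 2 (0.0535), whereas HDA19 kept its call without any 1 library.

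After median-ratio scaling no member was called in any comparison, beside 13.9% of all genes in the knockout against wild type, 6.89% in the overexpression line against wild type and 27.8% in the overexpression line against the knockout. SNL1 then stood highest relative to the knockout, with a log2 change of 0.38 in the overexpression line against the knockout (SE 0.16, adjusted p = 0.0959), followed by VAL1 at 0.27, SNL2 at 0.25, PKL at 0.22 and VAL2 at 0.14. VAL3 stood lowest at -0.10. The summed level of the 8 genes was 88.3 to 102 TPM in knockout siliques, 73.2 to 80.3 TPM in overexpression siliques and 85.7 to 90.0 TPM in wild type. After the scaling the same sums were 79.0 to 89.0 TPM, 89.5 to 91.1 TPM and 81.7 to 82.7 TPM in knockout siliques, the overexpression line and wild type. The order of the groups in this sum therefore turned with the scaling.

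**Figure D2:**
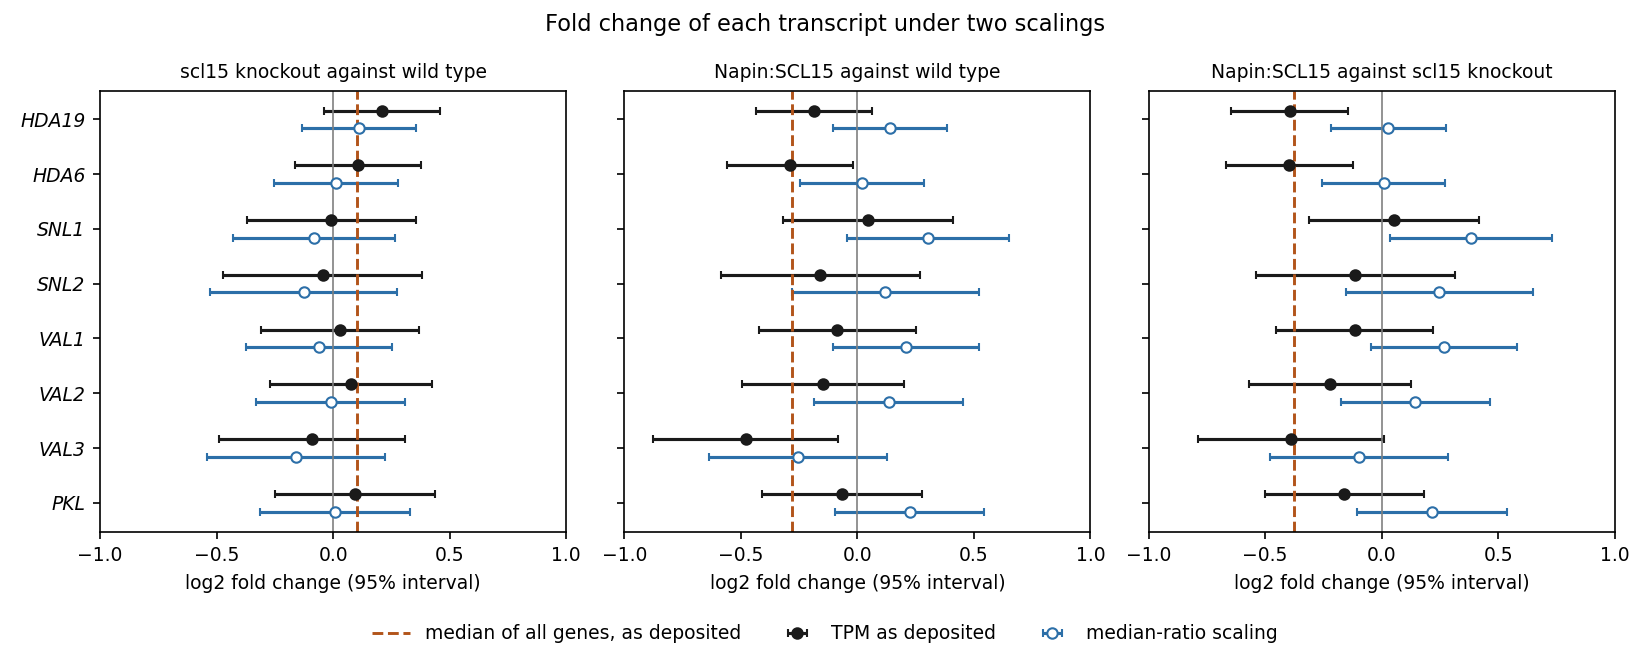
Log2 fold change of each repressor gene on log2(TPM + 1), with 95% intervals, as deposited (filled) and after median-ratio scaling (open), and the median of all genes as deposited (dashed). HDA19 and HDA6 lie at -0.40 in the overexpression line against the knockout as deposited, near the median of all genes of -0.38, and at 0.03 and 0.01 after scaling.

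A ratio between paralogues within a library does not depend on how that library was scaled. HDA19 made up 74.8, 75.3 and 75.6% of the summed HDA19 and HDA6 transcripts in the knockout, 73.3, 75.0 and 78.0% in overexpression siliques, and 75.5, 73.1 and 73.1% in wild type. Its mean share was 75.2% ± 0.422, 75.4% ± 2.36 and 73.9% ± 1.37 in knockout siliques, the overexpression line and wild type (SD, n = 3 each). The differences between groups were at most 1.53 percentage points, and the exact two-sided permutation p-values ran from 0.3 to 0.9.

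VAL3 took 15.0, 17.3 and 13.9% of the summed VAL transcripts in the knockout, 13.0, 12.4 and 11.1% in overexpression siliques, and 15.1, 17.6 and 18.5% in wild type. All overexpression libraries lay below all others. The mean share in the overexpression line, 12.2% ± 0.987, was lower than the 17.1% ± 1.77 of wild type by a difference of -4.92 percentage points, and lower than the 15.4% ± 1.77 of the knockout by -3.26 percentage points. The exact two-sided permutation p was 0.1 for each, the smallest that 3 against 3 libraries can give, and 0.643 after Benjamini-Hochberg adjustment over 15 share comparisons.

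VAL1 was the largest VAL transcript, at 48.5% ± 3.82 of the 3 in the knockout, 52.3% ± 1.46 in overexpression siliques and 48.4% ± 3.71 in wild type. VAL2 held 36.1% ± 2.14 in knockout siliques, 35.5% ± 0.541 in overexpression siliques and 34.6% ± 2.30 in wild type. SNL1 held 37.3% ± 5.93 of the SNL1 and SNL2 sum in the knockout, 40.5% ± 3.15 in overexpression siliques and 36.3% ± 1.38 in wild type. The groups of these 3 shares overlapped in every comparison, with exact permutation p-values of 0.2 or more.

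**Figure D3:**
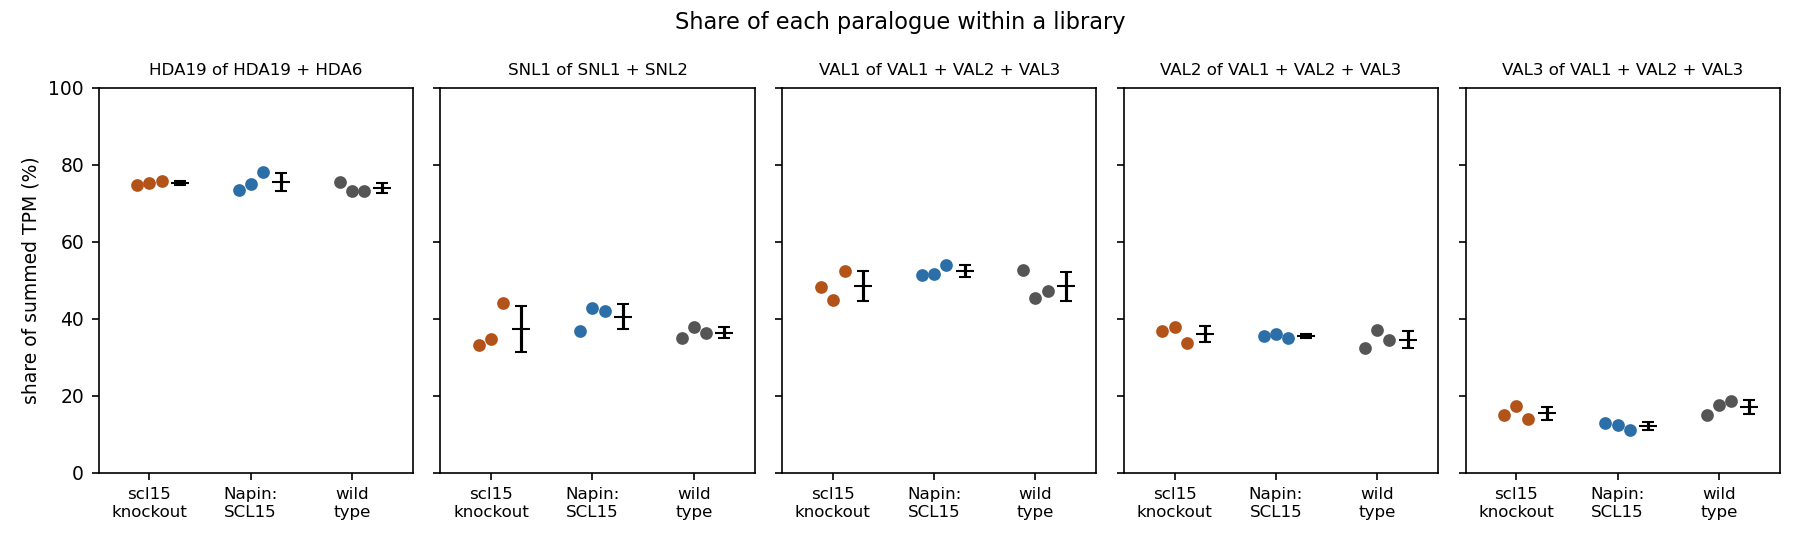
Share (%) of a gene in the summed TPM of its paralogues in each library, with 1 point per library and the mean with SD (n = 3). The VAL3 share of the overexpression line (11.1 to 13.0%) lies below the knockout (13.9 to 17.3%) and wild type (15.1 to 18.5%).

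Of 16 other deacetylase genes, 12 averaged at least 1 TPM and were tested. In the knockout against wild type none passed (limma, 2 at an unadjusted p under 0.05), and the most abundant, the plant-specific HD2-type gene HD2B, averaged 85.0 ± 10.04 TPM in knockout siliques and 74.0 ± 6.64 TPM in wild type (SD, n = 3 each). Median-ratio scaling called HDA2 lower there (-0.49, adjusted p = 0.0212), beside 7.77% of all genes. In the overexpression line against wild type 1 was lower, beside 23.4% of all genes. This was HDA8, at 23.6 TPM in overexpression siliques and 30.7 TPM in wild type, a log2 change of -0.38 (adjusted p = 0.0482). That call held under 5 of 20 alternatives and ended under all 3 other scalings (adjusted p of 0.688 or more) and without any 1 of 8 libraries, that is all except overexpression replicate 1 (0.0515 to 0.179). Against the knockout 4 of 12 were lower in the overexpression line, beside the 43.1% of all genes. These were HDA5 (-0.74), HDA14 (-0.69), HDA8 (-0.54) and HD2C (-0.47). HDA14 also lost its call without knockout replicate 1 (adjusted p = 0.0585), and HD2C without knockout replicate 3 (0.0609) or overexpression replicate 1 (0.0556) or 2 (0.0589). Median-ratio scaling left none of these 4 called and instead called HDA2 (0.62) and HD2A (0.85) higher, beside 2194 of 16555 genes. The list's median log2 fold change was 0.16 in knockout siliques and -0.18 in overexpression siliques, each against wild type, and -0.24 in the overexpression line against the knockout, against medians of all genes of 0.10, -0.28 and -0.38.

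Of 15 genes for partners of deacetylase complexes, 12 were tested, and none passed in the knockout (limma, 1 at an unadjusted p under 0.05). There MSI4, the most abundant and a WD-40 histone-binding protein of the flowering pathway also called FVE, averaged 22.7 ± 0.948 TPM in knockout siliques and 22.2 ± 1.60 TPM in wild type. AFR2, a SAP30-type subunit, had 10.5, 9.07 and 15.1 TPM in knockout siliques, 3.41, 4.31 and 5.48 TPM in overexpression siliques, and 8.08, 6.20 and 10.05 TPM in wild type. The overexpression libraries lay below all others. AFR2 was lower in the overexpression line than in wild type, with a log2 change of -0.75 (SE 0.21, adjusted p = 0.0221), and lower than in the knockout, with a log2 change of -1.21 (SE 0.21, adjusted p = 4.7e-04). The call against the knockout was kept under all 20 alternatives, with a log2 change of -0.83 after median-ratio scaling. The call against wild type ended under the 3 other scalings (adjusted p = 0.164 to 0.233), without a low-value filter (0.0558), and without overexpression replicate 1 (0.0808) or 2 (0.0641) or wild type replicate 1 (0.0598) or 3 (0.0888).

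MSI1, a WD-40 histone-binding subunit of deacetylase, Polycomb and chromatin assembly complexes, averaged 22.9 TPM in knockout siliques, 14.0 TPM in overexpression siliques and 18.3 TPM in wild type. Its log2 fold change was -0.37 in the overexpression line against wild type (adjusted p = 0.0450) and -0.68 against the knockout (adjusted p = 6.8e-04). After median-ratio scaling these were -0.06 (adjusted p = 0.842) and -0.27 (adjusted p = 0.118), and both calls ended. The call against wild type also ended without any 1 of 7 libraries (0.0527 to 0.142), with knockout replicate 3 and overexpression replicate 3 the exceptions. SAP18, a SIN3-associated subunit, was lower in the overexpression line than in the knockout (-0.44, adjusted p = 0.0473), a call kept under 5 of 20 alternatives and lost without any 1 library other than overexpression replicate 3 (0.0510 to 0.190). In the 12 partners, 2 were thus lower in the overexpression line against wild type, beside 23.4% of all genes, and 3 against the knockout, beside 43.1%, with list medians of -0.09 and -0.18. After median-ratio scaling MSI4 was called higher against wild type (0.47, adjusted p = 0.0261), with none lower. Against the knockout MSI4 (0.53, adjusted p = 0.00340) and HDC1 (0.56, adjusted p = 0.00909), a deacetylase complex subunit, were called higher and AFR2 lower. Of all 16555 genes, that scaling called 547 higher and 593 lower against wild type, and 2194 higher and 2408 lower against the knockout.

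The TOPLESS co-repressors, which bring HDA19 to hormone-controlled genes, were all 5 tested. None passed against wild type in either line (limma, with 1 in the knockout and 2 in the other line at an unadjusted p under 0.05). TPR4, the most abundant, averaged 17.1 ± 1.88 TPM in knockout siliques, 15.1 ± 3.23 TPM in overexpression siliques and 19.3 ± 1.90 TPM in wild type. TPL was lower in the overexpression line than in the knockout, at 7.14 TPM in overexpression siliques and 10.9 TPM in knockout siliques (log2 fold change -0.55, adjusted p = 0.0109). That call ended under the 3 other scalings (0.364 to 0.512) and without knockout replicate 1 (0.0579). Median-ratio scaling instead called TPR2 higher there (0.41, adjusted p = 0.0414), beside 2194 of 16555 genes. Of the 3 CHD relatives of PKL, PKR1 and CHR5 were tested and did not pass in any comparison (limma, 0 at an unadjusted p under 0.05). PKR1 averaged 1.98 ± 0.328 TPM in knockout siliques, 1.76 ± 0.132 TPM in overexpression siliques and 2.04 ± 0.274 TPM in wild type.

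The Polycomb repressive complex 1 monoubiquitinates histone H2A and works with the VAL proteins at seed genes. Of 6 genes for this complex and the H3K27me3 reader LHP1, 5 were tested, and none passed in the knockout against wild type (limma, 1 at an unadjusted p under 0.05). RING1A had 8.17, 5.35 and 8.16 TPM in knockout siliques, 9.49, 13.8 and 13.4 TPM in overexpression siliques, and 6.80, 8.49 and 9.63 TPM in wild type. It was higher in the overexpression line than in the knockout, with a log2 change of 0.69 (SE 0.19, adjusted p = 0.00980), and this call held under all 20 alternatives. BMI1A averaged 6.32 TPM in knockout siliques, 4.44 TPM in overexpression siliques and 6.63 TPM in wild type. It was lower in the overexpression line than in wild type (-0.50, adjusted p = 0.0322) and than in the knockout (-0.44, adjusted p = 0.0318), and both calls ended after median-ratio scaling (0.414 and 0.741). As deposited, 1 of the 5 was lower and none higher against wild type, beside 23.4% lower and 1.68% higher among all genes, and against the knockout 1 was higher and 1 lower, beside 6.16% and 43.1%. After median-ratio scaling none was lower, RING1A was called higher against wild type (0.81, adjusted p = 0.0196), and RING1A (1.08), RING1B (0.92, adjusted p = 0.00926) and BMI1B (0.57, adjusted p = 0.0334) were called higher against the knockout. Of all 16555 genes, that scaling called 547 higher and 593 lower against wild type, and 2194 higher and 2408 lower against the knockout. The BMI1A calls ended also without overexpression replicate 1 (0.0669 and 0.0628) or 2 (0.132 and 0.133). The call against wild type ended also without any 1 wild type library (0.0630 to 0.0858), and the call against the knockout without knockout replicate 1 (0.0992) or 2 (0.0654).

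Among the seed maturation genes that VAL, PKL and deacetylase complexes are known to repress, several were called changed, in both directions. The list held 13 genes, with the flowering repressor gene FLC among them, and 12 were tested. In the knockout against wild type 3 rose and 1 fell, beside 9.18% of all genes higher and 6.31% lower. LEC1, a NF-YB subunit that drives embryo identity, had 6.10, 5.55 and 7.33 TPM in knockout siliques, 0.614, 0.512 and 1.52 TPM in overexpression siliques, and 1.58, 1.09 and 2.24 TPM in wild type. Its log2 fold change in the knockout was 1.49 (SE 0.24, adjusted p = 6.3e-04), and the call held under all 19 alternatives that could test it. L1L, its closest relative, averaged 61.1 ± 17.2 TPM in knockout siliques and 32.0 ± 10.4 TPM in wild type, a log2 change of 0.92 (adjusted p = 0.0152). FUS3, a B3 factor, averaged 23.7 ± 7.15 TPM in knockout siliques and 13.5 ± 3.89 TPM in wild type, a log2 change of 0.77 (adjusted p = 0.0360). The L1L call ended without knockout replicate 1 (0.0739) or 3 (0.0719) or wild type replicate 2 (0.0696). The FUS3 call ended under 11 of 20 alternatives, among them the 3 other scalings (0.0641 to 0.0731) and the fits without knockout replicate 1 (0.152) or 3 (0.146) or wild type replicate 1 (0.0648) or 2 (0.154). The gene that fell was the dormancy gene DOG1 (-0.57, adjusted p = 0.0230), and its call ended without knockout replicate 2 (0.0629) or 3 (0.0848) or wild type replicate 2 (0.0727) or 3 (0.0750). The list's median was 0.18 against 0.10 over all genes.

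Against wild type, DOG1, ABI3 and the cruciferin gene CRA1 rose in the overexpression line and L1L fell, beside 1.68% of all genes higher and 23.4% lower. After median-ratio scaling 4 were called higher and none lower, the fourth being the flowering repressor gene FLC (0.56, adjusted p = 0.0474). On that scale 547 of 16555 genes were called higher and 593 lower. DOG1 had 33.4, 25.8 and 25.6 TPM in knockout siliques, 54.95, 66.9 and 80.5 TPM in overexpression siliques, and 37.1, 44.2 and 45.7 TPM in wild type. The groups did not overlap in any pair. Its log2 fold change in the overexpression line was 0.65 against wild type (SE 0.16, adjusted p = 0.00993) and 1.22 against the knockout (SE 0.16, adjusted p = 3.3e-05). ABI3, a B3 factor whose gene is a VAL target, averaged 51.8 ± 7.69 TPM in overexpression siliques and 32.8 ± 0.936 TPM in wild type, a log2 change of 0.63 (SE 0.13, adjusted p = 0.00503). These DOG1 and ABI3 calls held under all 20 alternatives. The log2 fold change of L1L was -0.89 (adjusted p = 0.0150), a call that ended under the 3 other scalings (0.126 to 0.193) and without overexpression replicate 2 (0.0657) or wild type replicate 3 (0.0633). CRA1 stood at 0.61 (adjusted p = 0.0497), a call kept under 6 of 19 alternatives, among them the fit without an abundance trend. It was lost without any 1 library other than knockout replicate 2 (0.0544 to 0.132). Its libraries did not overlap, at 47145 to 54454 TPM in overexpression siliques and 31817 to 34384 TPM in wild type. CRU3 (131917 to 155459 against 81928 to 86663 TPM) and OLEO1 (25851 to 26498 against 17664 to 20956 TPM) did not overlap either, but were not called. Of the 12 genes tested, 7 did not overlap and were higher in the overexpression line, and 1 did not overlap and was lower. The share of all genes that did not overlap in the higher direction was not computed.

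Between the overexpression line and the knockout, 8 of the 12 genes tested in this list were called, 5 higher and 3 lower in the overexpression line, beside 6.16% of all genes higher and 43.1% lower. LEC1 (-1.99, adjusted p = 1.7e-05) and L1L (-1.81, adjusted p = 3.6e-05) were lower and DOG1 was higher, each under all alternatives that could test it. FUS3 (-0.60) was lower too, and ABI3 (0.55), CRA1 (0.89), CRU3 (0.89) and the oleosin gene OLEO1 (0.69) were higher. The FUS3 call was kept under 7 of 20 alternatives, ending under the 3 other scalings (0.464 to 0.587) and without knockout replicate 1 (0.162) or 3 (0.156), any 1 overexpression library (0.0551 to 0.111) or wild type replicate 1 (0.0538). The CRU3 call ended under quantile normalization (0.106), without a low-value filter (0.456) and without both knockout replicate 3 and overexpression replicate 3 (0.0820). The CRA1 and OLEO1 calls ended without a low-value filter (0.204 and 0.187), and the ABI3 call held under all 20 alternatives. The list's median was 0.05, against -0.38 over all genes. The seed and embryo markers, 4 of which are in this list, summed higher in the overexpression libraries as given above. The remaining marker, FAE1, averaged lower in the overexpression line than in the knockout. The part of seed content in these levels was not tested.

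Genes reported to be held down by SNL1 and SNL2 in seeds include the ethylene synthesis genes ACO1 and ACO4, the ethylene response factors ERF9, ERF105 and ERF112, the abscisic acid hydroxylase genes CYP707A1 and CYP707A2, and the auxin carrier gene AUX1. Of these 8, 7 were tested. ERF105 had 105.2, 109.7 and 102.6 TPM in knockout siliques, 13.6, 18.7 and 20.3 TPM in overexpression siliques, and 37.3, 46.1 and 45.8 TPM in wild type. The 3 groups did not overlap. Its log2 fold change was 1.28 in the knockout against wild type (SE 0.15, adjusted p = 4.9e-05) and -1.26 in the overexpression line against wild type (SE 0.15, adjusted p = 1.6e-04), comparisons that share the wild type libraries. It was -2.55 in the overexpression line against the knockout (SE 0.15, adjusted p = 5.1e-08). All 3 calls held under all 20 alternatives.

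ACO4 averaged 100.7 ± 8.01 TPM in knockout siliques and 73.8 ± 14.8 TPM in wild type and was the other of 2 called higher there (0.46, adjusted p = 0.0386), beside 9.18% of all genes. The call held under 7 of 20 alternatives and ended without any 1 of 6 libraries (knockout replicates 1, 2 and 3, overexpression replicate 1, and wild type replicates 1 and 3), at 0.0539 to 0.153. AUX1 averaged 15.3 TPM in overexpression siliques and 24.3 TPM in wild type and was called lower (-0.63, adjusted p = 0.00698), with ERF105 the other of 2, beside 23.4% of all genes, but not under the 3 other scalings (0.164 to 0.248). Between the overexpression line and the knockout 5 of 7 were lower, beside 43.1% of all genes. These were ERF105, ACO1 (-1.10, adjusted p = 0.00640), AUX1 (-0.89, adjusted p = 1.9e-04), ERF9 (-0.74) and ACO4 (-0.69). AUX1 kept that call under all 20 alternatives, and ACO1 lost it under quantile normalization (0.0719). ERF9 and ACO4 lost theirs under the 3 other scalings (0.188 to 0.292 and 0.0946 to 0.204), and ERF9 also without knockout replicate 1 (0.0590) or 3 (0.114) or overexpression replicate 2 (0.140) or without a low-value filter (0.0658). After median-ratio scaling 3 of the 7 were called lower (ERF105, ACO1 and AUX1) and 2 higher, CYP707A1 (0.59, adjusted p = 0.0291) and CYP707A2 (0.68, adjusted p = 0.0333). On that scale 2408 of 16555 genes were called lower and 2194 higher. The list's median was 0.42 in knockout siliques and -0.23 in overexpression siliques, each against wild type, and -0.74 in the overexpression line against the knockout. Over all genes these medians were 0.10, -0.28 and -0.38.

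Silique wall markers were called changed in both directions. In the knockout against wild type 1 of 5 was called higher and 1 lower as deposited, beside 9.18% and 6.31% of all genes. After median-ratio scaling only SHP1 was called there, lower (-1.40, adjusted p = 7.1e-05), beside 7.77% of all genes lower. As deposited SHP1 averaged 5.72 TPM in knockout siliques and 16.2 TPM in wild type. In the overexpression line against wild type 4 of 5, FUL, SHP1, IND and ALC, were called lower as deposited, beside 23.4% of all genes. After median-ratio scaling none was, beside 3.58% of all genes lower. Against the knockout FUL, IND and ALC were called lower in the overexpression line and SHP1 higher, beside 43.1% of all genes lower and 6.16% higher. All 4 remained called after median-ratio scaling, beside 2408 of 16555 genes lower and 2194 higher. On that scale FUL was at -0.77 (adjusted p = 8.8e-04), IND at -0.99 (adjusted p = 2.6e-04), ALC at -0.47 (adjusted p = 0.00974) and SHP1 at 1.08 (adjusted p = 2.3e-04). Their part in the levels of the repressor genes and their partners was not tested.

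**Figure D4:**
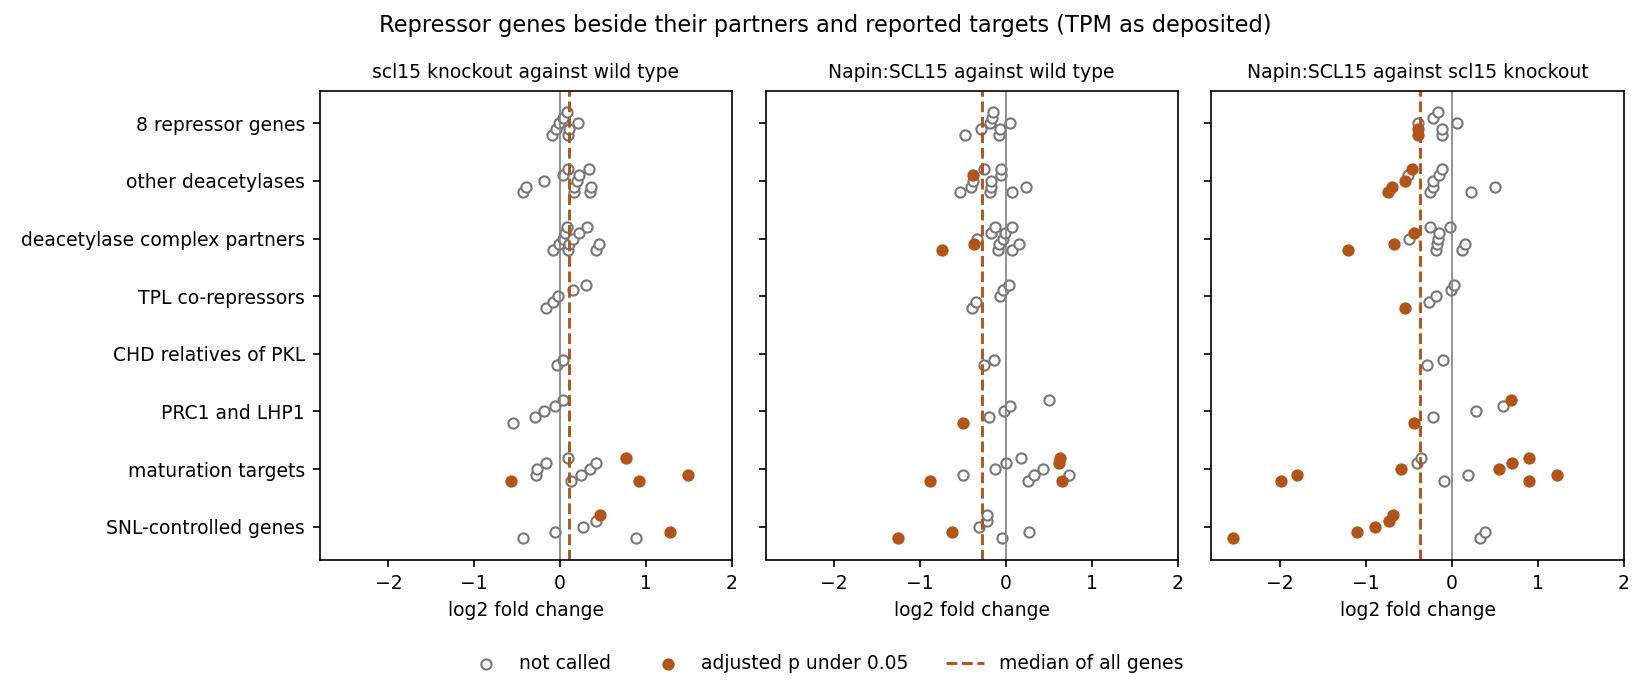
Log2 fold change (TPM as deposited) of the 8 repressor genes and of the tested genes in each related list, filled where the adjusted p was under 0.05, with the median of all genes dashed. The repressor genes lie between -0.48 and 0.21 in all 3 comparisons, whereas the maturation targets span -1.99 to 1.49 and the SNL-controlled genes -2.55 to 1.28.

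The transcripts whose levels followed each member most closely were sought among 10582 genes averaging at least 5 TPM, by Pearson's r of log2(TPM + 1) over the 9 libraries, which share their groups and the scale of each library. HDA19 was followed most closely by AT3G49800, a BSD domain gene (r = 0.98), TCP15 (0.98) and AT4G31510 (0.98). TCP15 averaged 12.0 TPM in knockout siliques, 4.89 TPM in overexpression siliques and 7.04 TPM in wild type. HDA6 was followed by HSFA4A (0.99), PTP1 (0.98) and the protein kinase gene AT4G25390 (0.98). For VAL3 these were CPK30 (0.99), D2HGDH (0.97) and DER1 (0.97), and CPK30 averaged 6.37, 4.30 and 6.83 TPM in knockout siliques, the overexpression line and wild type. For VAL1 they were PHS1_2 (0.94), THA1 (0.91) and AT2G41770 (0.91), and for VAL2 they were PIF4 (0.93), AT1G80910 (0.92) and AT2G27350 (0.91). For PKL they were AT3G07140 (0.92), AT1G23120 (0.91) and AT3G18680 (0.91). SNL1 was followed by the chromatin remodeller gene CHR11 (0.94), AT5G22450 (0.92) and AT4G02480 (0.91), and SNL2 by APS3 (0.95), AT1G12470 (0.95) and AT4G03020 (0.90). SNL1 and VAL3 average under 5 TPM and were not among the genes searched, and none of the other 6 members was among the 3 closest genes of another.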

How the data were processed

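Polyadenylated RNA of 9 silique libraries was measured. The authors deposited 1 TPM value per gene and library, per the file headers, and every library sums to 1000000. Per the submitters' processing notes the genome build was TAIR 10. Not given in the sources used here are the aligner, the counting tool, how strand was used, the annotation version and any filter. TPM keeps no depth, so no count test, counting interval or detection floor was possible, and the 95% intervals printed are those of the fit. Per the labels' protocols the library kits are stranded.

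The package limma 3.58.1 (R 4.3.3) was fitted to log2(TPM + 1) of all 9 libraries at once, with eBayes and an abundance trend, leaving 6 residual degrees of freedom. The 16555 genes averaging 1 TPM or more were tested and called at a Benjamini-Hochberg adjusted p under 0.05 over all of them. An adjusted p of a gene comes from that fit unless an alternative is named beside it. Because 1 TPM was added before taking logs, the fold changes of low genes are understated. Shares of paralogues were compared with exact two-sided permutation tests. Tables were made with Python 3.11.15, pandas 2.3.3 and scipy 1.17.1, and figures with matplotlib 3.10.9. The labels call the libraries biological replicates without saying what was separate, so a p-value reflects only how far these samples vary, which may be technical.

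The members and the related lists were chosen with earlier results of these data known. From each list and comparison, up to 3 called genes with the largest change were named, or the most abundant where none was called, and further called genes of the same counts were named after their values were seen. The 3 genes most like each member were named by Pearson's r. Alternatives covered 3 other scalings (median-ratio, quantile, and a total without organelle genes and genes over 1000 TPM), pseudocounts of 0.1 and 5 TPM, no filter and a filter of 5 TPM, no trend, the 2 groups alone, the replicate number as a block, and fits without each library or without knockout replicate 3 and overexpression replicate 3. Same-numbered overexpression and wild type libraries deviated together weakly (r = 0.13, 0.18 and 0.15 over genes), against r of -0.19 to 0.01 between different numbers. The main fit has no block, and the block is an alternative. Same-numbered overexpression and knockout libraries did likewise (r = 0.07, 0.16 and 0.13), against -0.13 to -0.02 between different numbers. For knockout and wild type, r was -0.06, 0.35 and 0.27, against -0.39 to 0.11 between different numbers. Whether equal numbers stand for a pairing cannot be settled by correlations this weak. Positions and upstream windows came from TAIR10.1, since the deposited table holds no coordinates. Gene names were the deposited ones or those of the lists.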

Additional observations from a re-analysis of the deposited data

How the results depend on the processing

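With 0 members called in the knockout against wild type, 0 in the overexpression line against wild type and 2 in the overexpression line against the knockout, the first count was 0 under all 20 alternatives. The second was 1 without an abundance trend (VAL3) and 0 under the other 19. The third was 0 under median-ratio scaling, quantile normalization and rescaling without organelle genes and genes over 1000 TPM, ran from 1 to 2 when single libraries were left out (1, HDA19, without knockout replicate 1, knockout replicate 2 or overexpression replicate 2), and was 2 under the rest. With the replicate block these counts were 0, 0 and 2, and the block ended no call of a gene named here. With that block 3442, 5281 and 8863 genes were called over the whole table in the same 3 comparisons, against 2564, 4149 and 8146 without it. Of all values recomputed for the 3 comparisons in this order, 338, 328 and 551 kept direction and side of the threshold, 33, 65 and 81 kept direction and lost it, and 25, 22 and 18 changed sign. SNL1 and VAL3 fall below the 5 TPM filter and have no value there. TPM gives no depth, and low transcripts such as VAL3 and SNL1 carry the largest errors after SNL2.

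The sign changes were all in log2 fold changes that were not called, except HDA19 and HDA6 in the overexpression line against the knockout (0.028 and 0.0083 under median-ratio scaling). The values that changed sign were as follows. In the knockout against wild type, median-ratio scaling gave -0.059 for VAL1, -0.0094 for VAL2 and -0.060 for MSI4. Quantile normalization gave -0.070, -0.019 and -0.036 for the same genes, and rescaling gave -0.053 for VAL1 and -0.051 for MSI4. Without both knockout replicate 3 and overexpression replicate 3, VAL1 was at -0.0014, SNL1 at 0.032 and SNL2 at 0.17. Leaving out single libraries gave -0.064 to 0.15 for VAL1, -0.028 to 0.14 for VAL2, -0.19 to 0.0085 for VAL3, -0.092 to 0.049 for SNL1, -0.25 to 0.17 for SNL2, -0.021 to 0.076 for MSI4 and -0.11 to 0.045 for PKR1. In the overexpression line against wild type, median-ratio scaling gave 0.14 for HDA19, 0.021 for HDA6, 0.21 for VAL1, 0.13 for VAL2, 0.22 for PKL, 0.12 for SNL2 and 0.085 for PKR1. Quantile normalization gave 0.16, 0.0090, 0.20, 0.14, 0.22, 0.12 and 0.12 for these, and rescaling gave 0.088 for HDA19, 0.17 for VAL1, 0.10 for VAL2, 0.19 for PKL, 0.082 for SNL2 and 0.060 for PKR1. Leaving out single libraries gave -0.17 to 0.038 for PKL and -0.034 to 0.10 for SNL1. In the overexpression line against the knockout, median-ratio scaling gave 0.27 for VAL1, 0.14 for VAL2, 0.22 for PKL, 0.25 for SNL2 and 0.18 for PKR1. Quantile normalization gave 0.27, 0.16, 0.22, 0.26 and 0.25 for these, and rescaling gave 0.22, 0.10, 0.17, 0.22 and 0.17. Leaving out single libraries gave -0.33 to 0.089 for SNL2. Median-ratio scaling and rescaling multiply all genes of a library by 1 factor, whereas quantile normalization maps ranks. In the order median-ratio, quantile and rescaling, they moved the median of all genes in the overexpression line against the knockout to -0.01, -0.0032 and -0.07. The cause of the changes without single libraries was not tested.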
